A study of Homo sapiens with 4 samples.

Results

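The human HOX genes were taken as every gene row whose symbol is HOX, a cluster letter from A to D and a paralogue number, which gave 39 of the 36601 genes counted. They lie in 4 clusters: 11 in HOXA (chr7:27092993-27200106), 10 in HOXB (chr17:48528526-48729178), 9 in HOXC (chr12:53938765-54056030) and 9 in HOXD (chr2:176092891-176190907), all in GRCh38. The enteric ganglioids were made from the human embryonic stem cell line H9 through an enteric neural crest stage, grown in suspension, and profiled at stage 1 by single-nucleus RNA sequencing. The 2 control samples and the 2 PP121 samples received the same media, including GDNF, and the PP121 samples also received PP121 at 2 µM from day 15 to day 20. PP121 is a small molecule that inhibits tyrosine kinases and phosphoinositide 3-kinases. Each sample was a pool of ganglioids. The labels number the replicates 1 and 2 in each group. They do not say whether same-numbered control and PP121 samples came from a shared differentiation. The deposited annotation dates replicate 1 of each group to day 42 and replicate 2 to day 38. Differences between replicates and between days therefore cannot be told apart.

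HOX genes encode homeodomain transcription factors that give cells a position along the head-to-tail axis. Within a cluster they are switched on in order, so that low paralogue numbers start in the hindbrain and high numbers start further towards the tail, and retinoic acid brings on the low numbers early. The neural crest that forms most of the enteric nervous system leaves the neural tube at the vagal level. That level spans the posterior hindbrain and the neural tube beside the first somites. This crest is known for its low to middle paralogue numbers. HOX proteins bind DNA together with PBX and MEIS homeodomain cofactors, and CDX factors favour the paralogues of the trunk.

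Annotated nuclei numbered 2912 to 4587 a sample with a median of 6289 to 7071 UMIs (unique molecular identifiers, each standing for a captured transcript), and 23348045 to 34123759 UMIs a sample in all. Libraries shared 0 to 8 barcodes pairwise. The classes used were the deposited ones, which had been made by clustering on expression, so that HOX genes may have had a part in them. Against their markers, nuclei classed as enteric neurons had the neuronal genes STMN2 (297 CPM, counts per 1000000 UMIs, mean of 4 samples) and ELAVL4 (16.8 CPM), whereas the enteric regulator RET (1.51 CPM) was low and HAND2 was at 3 UMIs in all neurons. Mesenchymal nuclei had high collagen transcripts (COL3A1, 915 CPM), but there were 40 and 33 of them in the day 42 samples against 408 and 422 in the day 38 samples.

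The HOX transcripts detected were almost all of paralogues 1 to 4. Over the 4 samples 13383 of 116292617 annotated UMIs came from HOX genes, or 115 CPM. The 12 members of paralogue groups 1 to 4 held 13312 of these (99.5%), and the 27 members of groups 5 to 13 held 71 (0.531%). Of those 27, 15 had no UMI in any annotated nucleus: HOXA6, HOXA7, HOXA11, HOXB6, HOXB9, HOXB13, HOXC6, HOXC8, HOXC9, HOXC11, HOXC12, HOXD10, HOXD11, HOXD12 and HOXD13. A count of 0 over all samples allows a level of up to 0.0258 CPM, which covers counting error only.

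The few UMIs of the higher paralogues were unevenly spread. Paralogues 5 to 8, which pattern the trunk, had 56 UMIs over 11 members, and paralogues 9 to 13, which pattern the lumbosacral and tail levels and the limbs, had 15 over 16 members. HOXB8 had 28 UMIs, all in 1 progenitor 1 nucleus of PP121 1, and 11 of the 12 HOXC5 UMIs were in 1 neuron of control 2. Without those 2 nuclei, 32 UMIs were left for groups 5 to 13, or 0.240% of HOX UMIs. HOXA5, a vagal-level paralogue, had 8 UMIs and HOXD8 had 5. HOXA5, HOXB5, HOXC5, HOXA6, HOXB6 and HOXC6 overlap the annotated span of HOXA3, HOXB3 or HOXC4 on the same strand, so reads there could belong to either paralogue range, and these 6 held 22 of the 71 UMIs. Others, HOXB8 and HOXA10 among them, overlap a member within groups 5 to 13, so that their reads are uncertain in their gene but not in that range.

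**Figure D1:**
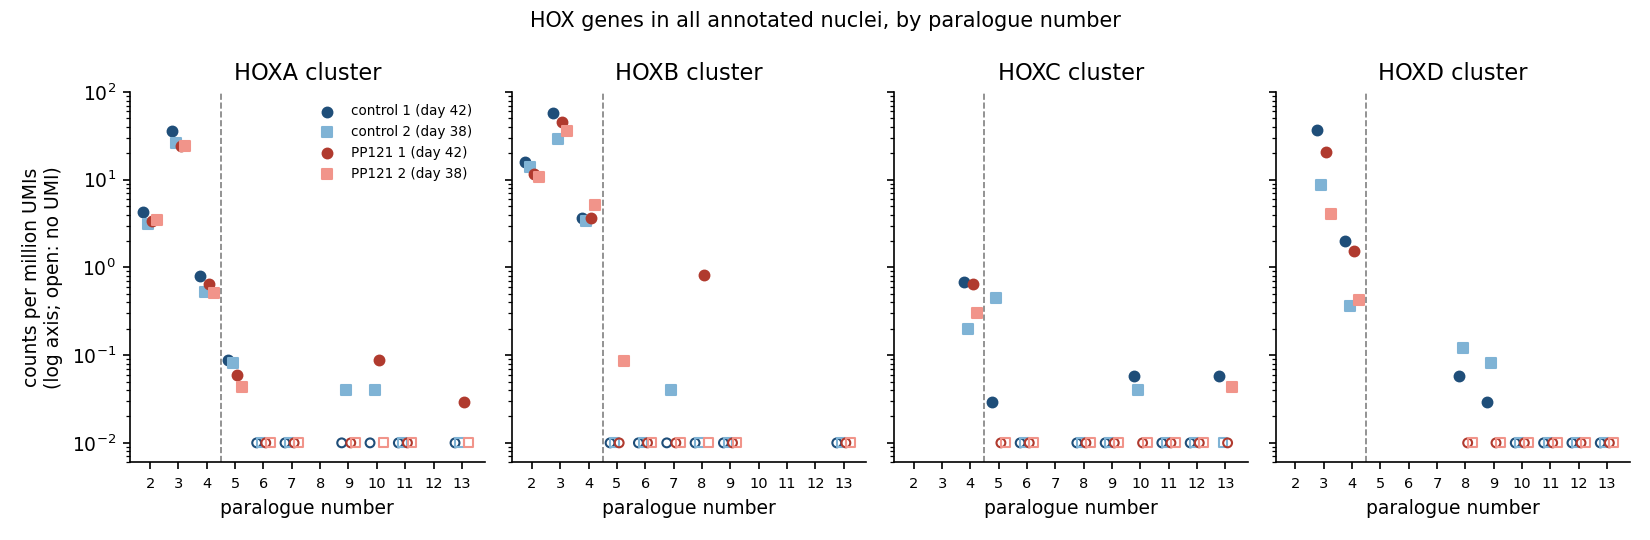
Level of the HOX genes of paralogue groups 2 to 13 in all annotated nuclei of each sample, in CPM on a log axis, against paralogue number, with a panel per cluster; open symbols at the bottom mark a sample with no UMI. The points fall from paralogue 3 to paralogue 5 in HOXA and HOXB, and the 27 genes right of the dashed line held 71 of 13383 HOX UMIs.

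Paralogue group 3 led in every sample. It took 82.2% of HOX UMIs in control 1, 73.8% in control 2, 79.6% in PP121 1 and 75.0% in PP121 2, and group 2 took 12.8%, 19.6%, 13.3% and 16.7%. HOXB3, HOXA3 and HOXD3, which act in the posterior hindbrain and the neural crest that leaves it, had 37.7%, 24.4% and 16.9% of all HOX UMIs, and HOXB2, a hindbrain paralogue, had 11.4%. These 4 genes together held 90.5%, and with HOXB4 and HOXA2 added the share was 97.0%. In CPM over all annotated nuclei HOXB3 was at 41.8 ± 12.3 (SD, n = 4 samples), HOXA3 at 27.6 ± 5.94, HOXD3 at 17.5 ± 14.5 and HOXB2 at 13 ± 2.41. The next were HOXB4 (3.97 CPM), HOXA2 (3.58 CPM), HOXD4 (1.09 CPM), HOXA4 (0.619 CPM) and HOXC4 (0.456 CPM).

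The order among genes depended on the length used. HOXB3, HOXA3 and HOXD3 have long annotated spans (56.0, 46.4 and 36.5 kb) that include other HOX genes, and whether reads in introns were counted is not given in the sources used here. Per kb of annotated span HOXB2 had the highest level (3.18 CPM per kb), ahead of HOXA2 (1.45), HOXB4 (0.863) and HOXB3 (0.746). Per kb of exon HOXA3 (6.42), HOXB3 (5.61), HOXB2 (5.57) and HOXD3 (4.94) came out close together. HOXD1 and HOXB1, of paralogue group 1, had 14 and 2 UMIs.

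The clusters contributed unequally. HOXB gave 48.6, 53.6, 54.3 and 60.6% of HOX UMIs in control 1, control 2, PP121 1 and PP121 2, and HOXA gave 26.4, 34.8, 25.3 and 33.6%. HOXD gave 24.5 and 19.8% in the samples of day 42 and 10.8 and 5.40% in those of day 38. HOXC gave 0.404 to 0.784%, and of its 9 members only HOXC4, with 57 UMIs, and HOXC5 had more than 3 UMIs. The HOXD share was higher on day 42 in neurons (25.3 and 20.7% against 12.0 and 6.17%), in progenitor 1 nuclei (20.8 and 20.8% against 7.69 and 5.71%) and in progenitor 2 nuclei (23.0 and 16.5% against 10.4 and 4.10%), with no overlap between the days in any of the 3 classes.

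**Figure D2:**
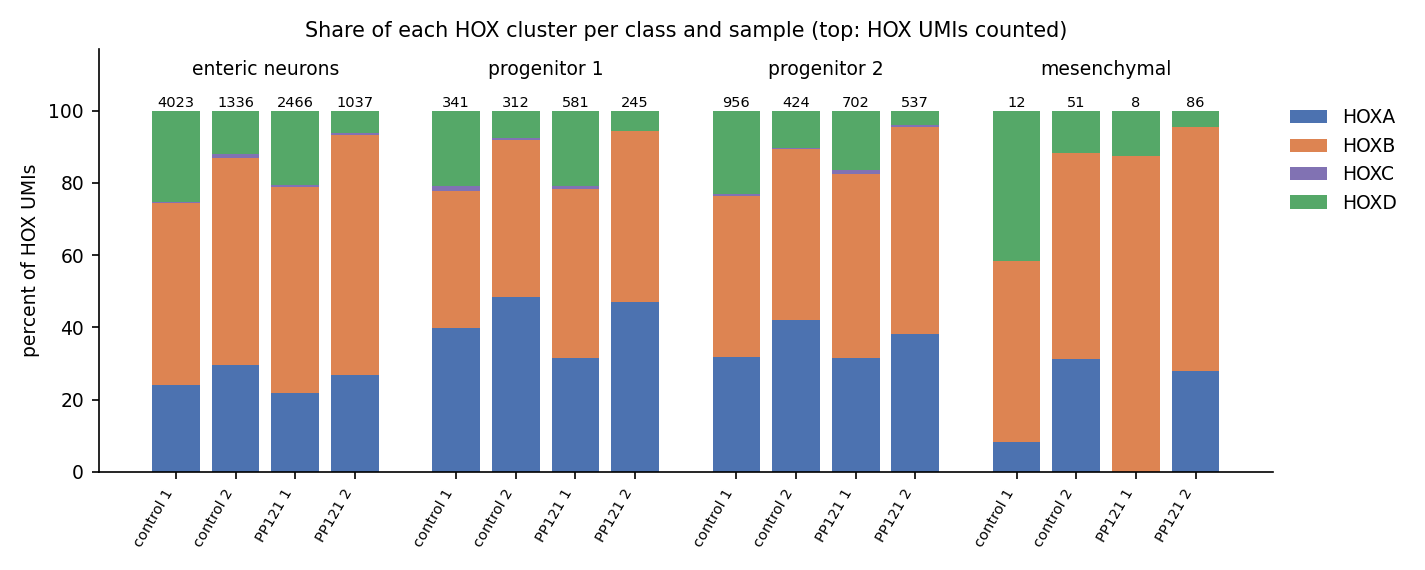
Stacked bars of the percent of HOX UMIs from each of the 4 clusters, per class and sample, with the number of HOX UMIs above each bar. The HOXD part is larger in the replicate 1 samples of enteric neurons, progenitor 1 and progenitor 2, and the mesenchymal bars of replicate 1 rest on 12 and 8 UMIs.

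Enteric neurons had the highest HOX level of the classes. Their summed HOX level was 212, 120, 146 and 118 CPM in control 1, control 2, PP121 1 and PP121 2, against 86.2, 78.3, 82.7 and 80.5 CPM in progenitor 1, 107, 78.5, 88.5 and 82.9 CPM in progenitor 2, and 33.6, 14.1, 26.9 and 24.8 CPM in mesenchymal nuclei. Neurons were above the other 3 classes in each of the 4 samples. Summed counts per class are as in bulk samples, so that the sums alone cannot tell fewer expressing nuclei from less RNA per nucleus. With every nucleus thinned to 2000 UMIs, 31.3, 19.0, 23.2 and 18.8% of neurons had a UMI of any HOX gene, compared with 7.50, 3.46, 0 and 5.71% of mesenchymal nuclei. The value of 0 rests on 33 nuclei, and its exact 95% interval reaches 10.6%. Thinning left out 2 to 10 neurons and 0 to 3 mesenchymal nuclei a sample, and the unthinned neuron shares were 62.8, 49.3, 53.3 and 50.1% at median depths of 7210 to 8102 UMIs.

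Against the progenitors the neuronal excess was largest in HOXB3 and HOXD3. In neurons HOXB3 was at 82.9, 47.5, 69.9 and 59.2 CPM in control 1, control 2, PP121 1 and PP121 2, in progenitor 2 at 33.4, 22.9, 28.0 and 32.1 CPM, and in progenitor 1 at 13.6, 13.3, 15.5 and 17.1 CPM. The 3 classes did not overlap for HOXB3. HOXA3 was at 45.0, 30.9, 27.7 and 25.9 CPM in neurons, 27.0, 31.6, 20.6 and 34.2 CPM in progenitor 1 and 28.8, 29.1, 23.5 and 27.5 CPM in progenitor 2, which overlapped throughout. HOXB2 was at 20.9, 17.6, 10.9 and 11.9 CPM in neurons, at 14.2, 17.1, 16.2 and 17.7 CPM in progenitor 1 and lower, at 8.73, 10.4, 10.3 and 8.96 CPM, in progenitor 2.

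In edgeR's quasi-likelihood test with sample as a block and Benjamini-Hochberg adjustment over 20096 genes, 7 of the 39 members passed the filter on low counts. Progenitor 1 was lower than neurons in 2 of the 7, HOXB3 (log2 fold change −2.13 ± 0.16 SE, adjusted p = 2.35e-08) and HOXD3 (−1.29 ± 0.18, adjusted p = 1.19e-05), each lower in 4 of 4 samples, where 56.5% of all tested genes were called. Progenitor 2 was lower in 3 of 7, HOXB3 (−1.18 ± 0.15, adjusted p = 6.72e-06), HOXD3 (−1.16 ± 0.17, adjusted p = 2.87e-05) and HOXB2 (−0.68 ± 0.20, adjusted p = 0.0117), where 36.5% of all genes were called. HOXB2 was lower in 4 of 4 samples, but was not called without control 1 (adjusted p = 0.100) or without control 2 (adjusted p = 0.0577). Between the progenitors, where 50.7% of genes were called, progenitor 2 had more HOXB3 (0.95 ± 0.17, adjusted p = 0.000179) and less HOXB2 (−0.78 ± 0.21, adjusted p = 0.00562). HOXA3, HOXA2, HOXB4 and HOXD4 passed in none of these 3 comparisons.

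Mesenchymal nuclei had less HOX transcript than neurons. Compared with neurons 7 of 7 were lower in the edgeR quasi-likelihood test, beside 41.4% of all genes called. The median log2 fold change of the 7 was −2.62 against −0.04 for all genes. The filter on low counts ran over the sums of all classes compared, so members could pass it through neurons and progenitors. A set admitted that way can lean lower in mesenchymal nuclei, so this count and median are given as values only. HOXB3 fell by 3.02, HOXA3 by 3.01, HOXD3 by 2.62, HOXB4 by 2.45, HOXA2 by 2.21 and HOXB2 by 1.63 on the log2 scale, with adjusted p values from 1.16e-08 for HOXB3 to 0.00266 for HOXB4. HOXD4 had no mesenchymal UMI and 77 neuronal ones (adjusted p = 0.0147 in the same test). With a floor of 3 counts, 0 mesenchymal UMIs allow 8.41, 0.829, 10.1 and 0.864 CPM in control 1, control 2, PP121 1 and PP121 2. Neurons were at 2.22, 0.361, 1.60 and 0.457 CPM, so no sample gives a least fold difference for HOXD4. Its call was lost in DESeq2 (adjusted p = 0.0628) and in edgeR without control 2 (adjusted p = 0.0724) or without PP121 2 (adjusted p = 0.0706). HOXB4 was lower in 3 of 4 samples and the other 6 in 4 of 4. A mesenchymal count of 0 gives no direction where it allows more than the neuronal level. That held for HOXD4 in every sample, for HOXA2 in control 1 and PP121 1, and for HOXB4 in control 1. All but HOXD4 had 6 to 57 mesenchymal UMIs each, and their level was 8.93% (HOXA3) to 39.5% (HOXB2) of that in neurons. Transcripts of neuronal genes in the same nuclei were at 2.13% (ELAVL4), 8.24% (STMN2) and 24.7% (SYT1) of their neuronal level, and the part of free RNA in the mesenchymal HOX level was not tested. Epithelial nuclei (52.6 ± 25.7 CPM summed, SD, n = 4) and nuclei of the deposited class named unknown (43.4 ± 10.5 CPM) lay between mesenchymal nuclei and progenitors, but epithelial nuclei numbered 9 to 37 a sample.

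**Figure D3:**
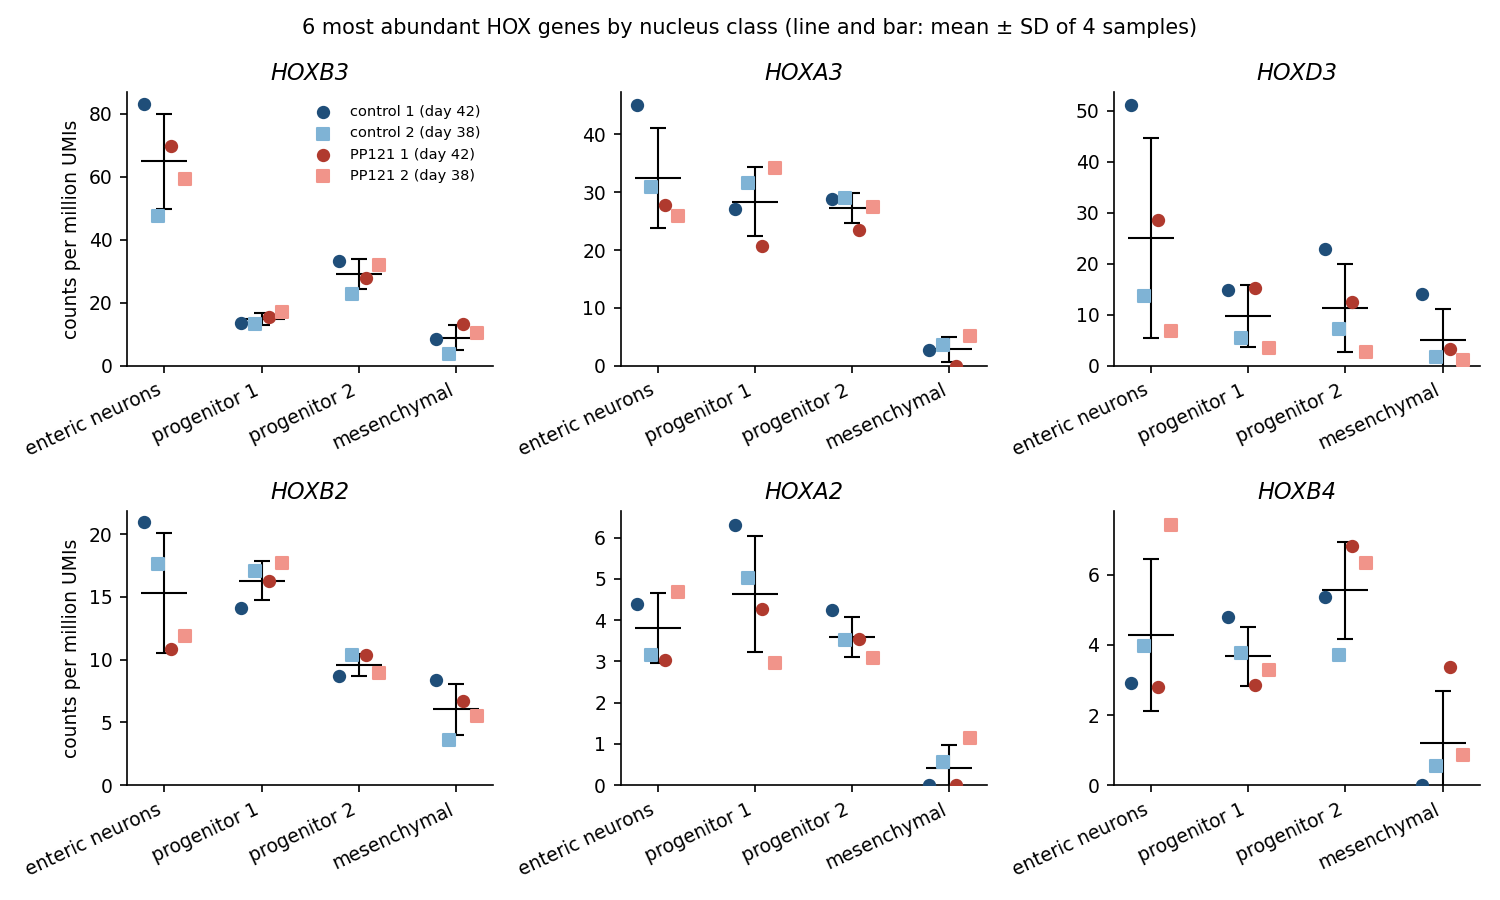
Level of the 6 most abundant HOX genes in CPM, per class, with a point per sample and a line and bar for the mean ± SD of 4 samples. HOXB3 separates neurons, progenitor 2 and progenitor 1 without overlap, HOXA3 and HOXA2 overlap among those 3 classes, and HOXD3 is spread within each class by the day of the sample.

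Replicate 1 against replicate 2 gave the largest HOX difference between samples of one class. HOXD3 in neurons was at 51.1 CPM in control 1 and 28.6 CPM in PP121 1, both dated day 42, and at 13.7 CPM in control 2 and 6.85 CPM in PP121 2, both dated day 38. The days did not overlap, and the ratio of day 42 to day 38 was 3.73 in control (95% interval for counting error 3.14 to 4.45) and 4.18 in PP121 (3.19 to 5.56). In progenitor 1 HOXD3 was at 14.9 and 15.2 CPM on day 42 and at 5.52 and 3.61 CPM on day 38. In progenitor 2 it was at 22.8 and 12.6 CPM against 7.22 and 2.78 CPM.

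With treatment as a term, edgeR's quasi-likelihood test called HOXD3 in all 3 classes: 1.90 ± 0.15 (log2, SE) in neurons (adjusted p = 8.51e-10), 1.56 ± 0.36 in progenitor 1 (adjusted p = 0.000384) and 1.81 ± 0.26 in progenitor 2 (adjusted p = 3.47e-07). In neurons 4 of 8 tested members were called, where 9.49% of 21243 genes were. Beside HOXD3 these were HOXD4, its neighbour within the same annotated span (2.17 ± 0.52, adjusted p = 0.00593, 2.22 and 1.60 CPM against 0.361 and 0.457), HOXB3 (0.46 ± 0.12, adjusted p = 0.0116) and HOXB4, which went the other way (−1.0 ± 0.28, adjusted p = 0.0225). HOXD3 alone was called in progenitor 1 (1 of 6 members, 14.6% of 16083 genes) and in progenitor 2 (1 of 7, 4.81% of 18885 genes). In mesenchymal nuclei 0 of 2 tested members were called, with 0 of 2 at an unadjusted p under 0.05 and 0 by DESeq2, where edgeR called 4.39% of 14387 genes. DESeq2 called HOXD3 as the only member in neurons and in progenitor 2, and gave it no adjusted p in progenitor 1.

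These calls rest on few samples. Without the treatment term no HOX member was called in any class, and HOXD3 then had adjusted p = 0.549 in neurons, 0.0967 in progenitor 1 and 0.584 in progenitor 2 at log2 fold changes of 1.88, 1.54 and 1.80. Leaving out 1 sample kept HOXD3 called in neurons without control 2 or PP121 1 (adjusted p = 0.0130 and 0.0194), and it was not called without control 1 or PP121 2 (adjusted p = 0.671 and 0.258). In progenitor 2 no omission kept it called, with log2 fold changes of 1.25 to 2.60. Values by neuron subtype of the deposited annotation come from the same libraries. They repeat the difference between those libraries and are not further replicates. HOXD3 was higher on day 42 in all 7 control subtypes with at least 20 nuclei on both days, from 20.7 to 72.9 CPM against 7.49 to 25.1 CPM, and in all 7 such PP121 subtypes, from 14.6 to 42.3 CPM against 0 to 9.90 CPM.

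**Figure D4:**
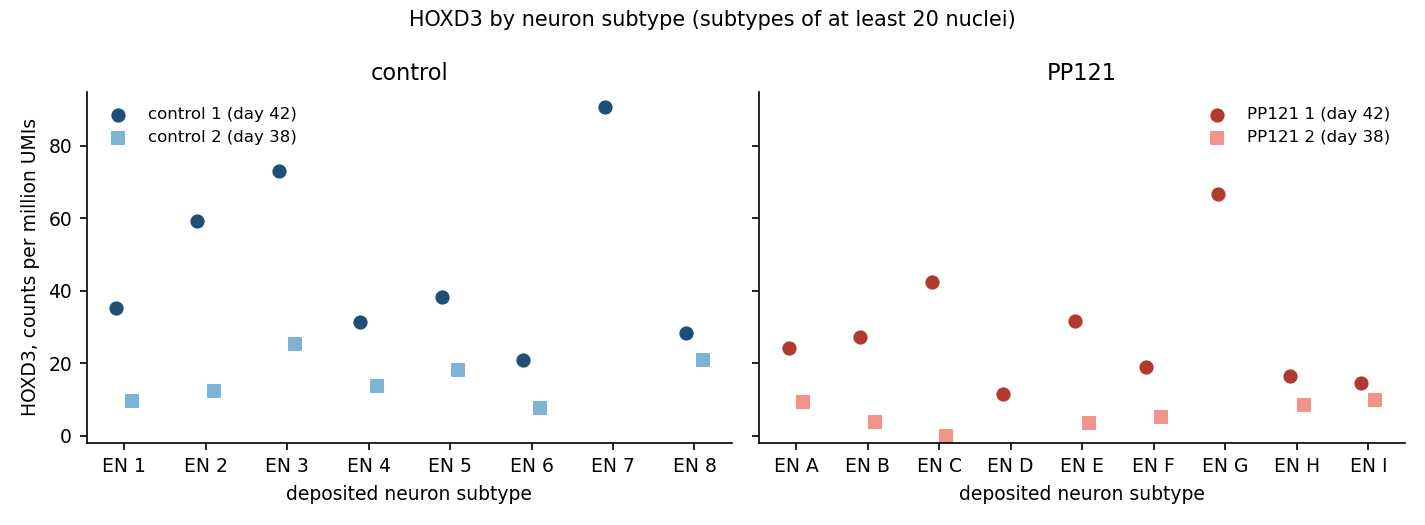
HOXD3 level in CPM in each deposited neuron subtype of at least 20 nuclei, controls left and PP121 right, with circles for day 42 and squares for day 38. In every subtype with both symbols the circle is above the square, and the subtypes of a sample share its library.

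Other measures moved with the day beside HOXD3. HAGLR, a long noncoding RNA antisense to HOXD1 and HOXD3, was higher on day 42 by 1.73 in neurons, 1.44 in progenitor 1 and 1.77 in progenitor 2 (log2, adjusted p = 1.35e-05, 0.0496 and 0.00151 in edgeR's quasi-likelihood test), and without stated strand handling its reads and those of HOXD3 cannot be told apart where they overlap. LNPK was chosen after its values were seen, from several genes near the cluster whose other values are not reported here. It had log2 differences of −0.44, −0.44 and −0.48 (adjusted p = 0.00218, 0.0471 and 0.00851 in the same test). Mesenchymal nuclei made up 0.934 and 0.719% of annotated nuclei on day 42 and 13.5 and 14.5% on day 38. The 10 mesenchymal markers summed to 16 and 13.4 CPM in day 42 neurons against 49.96 and 58.9 CPM, with no marker at 0. The part of these differences in the HOXD3 result was not tested.

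HOXD3 is printed here because it carried the difference between replicates. Its RefSeq promoter window in GRCh38.p14, the 250 bases before the annotated start at chr2:176157057-176157306 on the plus strand, lies inside the longer span that the counting annotation gives HOXD3 (chr2:176136612-176173102) and within no annotated exon. The capitals mark TAATTA, a core letter string of many homeodomain sites, 31 to 26 bases before the start.

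HOXD3: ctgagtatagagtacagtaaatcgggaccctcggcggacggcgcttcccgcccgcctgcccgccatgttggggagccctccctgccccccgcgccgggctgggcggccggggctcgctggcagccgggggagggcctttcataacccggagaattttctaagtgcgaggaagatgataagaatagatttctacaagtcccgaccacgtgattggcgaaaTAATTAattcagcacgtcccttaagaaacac

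A set of 5 motifs was searched on both strands in the 250-base windows of 27305 genes, of which 20 HOX members had a window. TAATTA was in 4.49% of all genes and in HOXD3 and HOXD11. The E box CANNTG was in 62.2% of all genes and in 17 of the 20, HOXD3 among them. The HOX with PBX string TGATNNAT (6.69% of genes) was in HOXA2, HOXB1 and HOXD11, the MEIS string TGACAG (13.1%) was in HOXA2 and HOXA4, and the nuclear receptor core AGGTCA (12.1%) was in 0 of 20. In the HOXD3 window CANNTG lay 47 to 42 bases before the start and did not overlap TAATTA.

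PP121 against control asked whether a compound given for 5 days early in ganglioid culture changed the HOX profile weeks later. Without a term for the replicate no HOX member was called in any class, and no other gene was either: edgeR's quasi-likelihood test called 0% of genes in neurons, 0% in progenitor 1, 0% in progenitor 2 and 0% in mesenchymal nuclei. At an unadjusted p under 0.05 it had 2549, 621, 1774 and 222 genes, of which HOX members were 2 of 8 tested, 0 of 6, 0 of 7 and 0 of 2. DESeq2 called 87, 1, 96 and 0 genes and no HOX member. HOXB2 was nearest, at −0.73 ± 0.18 (log2, SE) in neurons with adjusted p = 0.377 in edgeR.

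The replicate numbers pair a control and a PP121 sample of the same dated day, and with the number as a replicate block 3 of 8 tested members were lower with PP121 in neurons, where 14.8% of 21243 genes were called. HOXD3 was lower by 0.85 ± 0.14 (log2 fold change −0.85, adjusted p = 0.000121 in edgeR's quasi-likelihood test), HOXB2 by 0.74 ± 0.16 (−0.74, adjusted p = 0.00257) and HOXA3 by 0.46 ± 0.13 (−0.46, adjusted p = 0.0172). In progenitor 2, where 6.71% of genes were called with the block, HOXD3 was the only member of 7 called (−0.98 ± 0.25, adjusted p = 0.00592). In progenitor 1 0 of 6 members were called beside 3.69% of genes, and in mesenchymal nuclei 0 of 2 beside 0.452%, with 0 of these at an unadjusted p under 0.05 in either class and 0 by DESeq2. DESeq2 with the replicate block called 1 HOX member in neurons, HOXD3 (adjusted p = 0.0170), and 0 in the other classes.

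Each day on its own showed the size of these differences, with exact 95% intervals for counting error only. HOXD3 in neurons of PP121 relative to control was 0.561 (0.502 to 0.626) on day 42 and 0.500 (0.364 to 0.678) on day 38. HOXB2 was 0.519 (0.433 to 0.620) and 0.675 (0.527 to 0.861), and HOXA3 was 0.616 (0.549 to 0.691) and 0.838 (0.706 to 0.994). All 3 were below 1 on both days. HOXD3 in progenitor 2 was 0.553 (0.431 to 0.705) and 0.385 (0.207 to 0.689), whereas in progenitor 1 it was 1.02 (0.737 to 1.43) and 0.655 (0.287 to 1.41). HOXB3, the most abundant member, turned with the day: in neurons it was 0.842 (0.780 to 0.909) on day 42 and 1.24 (1.10 to 1.41) on day 38. On day 42 all 8 tested members were below 1 in neurons, 5 with an interval below 1, and on day 38 4 were above 1 and 4 below. The share of all genes below 1 was not taken, so these counts are values only and not a result about HOX genes. The HOXD3 difference was smaller than that between the days: control 2 neurons (13.7 CPM) had less HOXD3 than PP121 1 neurons (28.6 CPM).

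**Figure D5:**
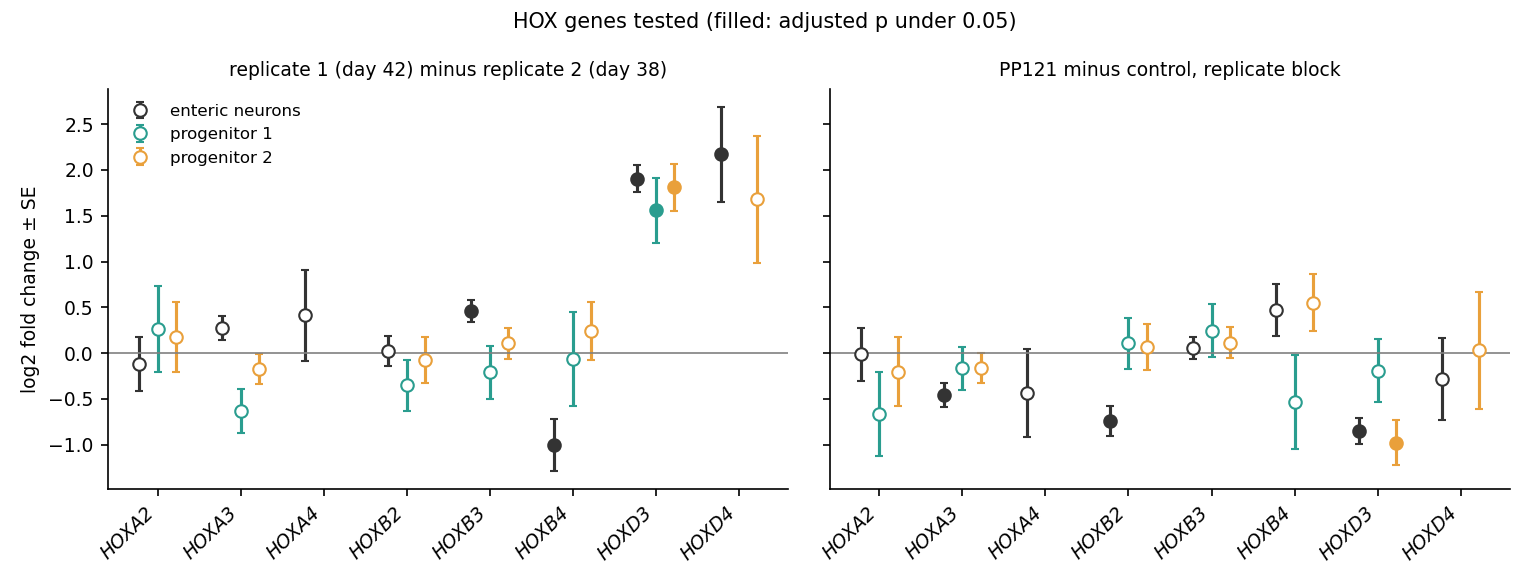
Log2 fold change ± SE of the HOX genes tested in enteric neurons, progenitor 1 and progenitor 2, for replicate 1 minus replicate 2 (left) and PP121 minus control with the replicate block (right); filled symbols have an adjusted p under 0.05. HOXD3 is near 1.6 to 1.9 in all 3 classes on the left and below 0 in neurons and progenitor 2 on the right.

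Whether these differences varied between classes was tested by interaction, and no HOX member was called. For the effect of PP121 relative to neurons edgeR's quasi-likelihood test called 0% of 20955 genes in progenitor 1, 0% in progenitor 2 and 0% in mesenchymal nuclei, with 1074, 649 and 926 genes at an unadjusted p under 0.05, and DESeq2 called 31, 0 and 0 genes and no HOX member. HOXB2 had adjusted p = 0.953 in progenitor 1 and adjusted p = 1 in progenitor 2 (edgeR), with PP121 effects 0.76 ± 0.33 and 0.77 ± 0.33 above that in neurons. For the replicate, 0.00477, 0 and 1.77% of genes were called in those classes, with 2, 1 and 0 of 7 HOX members at an unadjusted p under 0.05 and 0 called by either tool. HOXA3 was the nearest (progenitor 1 minus neurons −0.92 ± 0.25, adjusted p = 0.365). The HOXD3 replicate effect differed from that in neurons by −0.28 ± 0.40 in progenitor 1 and −0.10 ± 0.36 in progenitor 2.

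The share of nuclei with a HOX UMI showed no PP121 difference past its test. In neurons thinned to 2000 UMIs it was 25.2% ± 8.72 (SD, n = 2) in control and 21.0% ± 3.13 in PP121, a difference of −4.17 percentage points with p = 0.667 in an exact two-sided permutation test, where 2 samples against 2 cannot give a p below 0.333. Without control 1 the difference turned to the other direction, at 2.00 points, with only the day 38 control left against PP121 samples of both days.

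The summed level of the 9 TALE-class HOX cofactors was higher in neurons (2761 to 4944 CPM) than in progenitor 1 (1196 to 2204 CPM) and mesenchymal nuclei (1004 to 1623 CPM). All 9 were tested, and in neurons MEIS2 (1904 CPM) and PBX3 (480 CPM) were among the most abundant. Lower in progenitor 1 than in neurons were 8 of 9 (56.5% of all genes were called), among them PBX3 (−1.48) and MEIS2 (−1.42), and 5 of 9 were lower in progenitor 2 (36.5% of all genes called). In mesenchymal nuclei (41.4% of all genes called) 7 of 9 were lower, MEIS2 by 3.22 and MEIS1 by 2.60 on the log2 scale, and PKNOX2 was higher (0.75). With PP121 and the replicate block, under which 14.8% of all genes were called in neurons, 4 of 9 were higher (among them PBX3 0.52, MEIS2 0.45 and MEIS1 0.36, adjusted p from 0.00022 to 0.00383 in edgeR), with a median of 0.32 for the 9 against −0.0055 for all genes, and 0 of 9 without the block. On day 42 4 of 9 were lower in neurons, beside 9.49% of all genes called (MEIS1 −0.74, MEIS2 −0.63, PBX3 −0.44 and PBX4 −0.42), the direction opposite to that of HOXD3.

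The retinoic acid list had 9 of 15 tested genes called in mesenchymal nuclei, 8 of 15 in progenitor 2 and 6 of 15 in progenitor 1 against neurons, beside 41.4, 36.5 and 56.5% of all genes. ALDH1A2, which makes retinoic acid, was at 138 CPM in mesenchymal nuclei and 5.58 CPM in neurons (log2 4.70 ± 0.34, adjusted p = 6.43e-09, edgeR), and RDH10, STRA6 and RARG, for retinol oxidation, retinol uptake and a receptor, were higher there too, among 7 higher and 2 lower of 15 tested. In progenitor 2, 6 of 15 were higher than in neurons, led by DHRS3 (3.29) and CYP26B1 (1.85), which lower retinoic acid. In neurons RARB (171 CPM), a receptor that is itself a retinoic acid target, CRABP1 (154 CPM), a binding protein, and NRIP1 (80.4 CPM) were the most abundant. With PP121 and the replicate block 5 of 13 tested were higher in neurons, beside 14.8% of all genes called in either direction (among them RARB 0.73, CRABP1 0.47, NRIP1 0.50 and CYP26B1 0.90) and none lower, beside 0 of 13 without the block. CRABP1 was also higher in progenitor 1 (1.08) and progenitor 2 (1.05), and STRA6 in progenitor 2 (1.34). On day 42 CRABP1 (−0.67) and STRA6 (−1.49) were lower in neurons.

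Genes that mark levels in front of the HOX domain were present at low to moderate levels. In neurons GBX1 (59.3 CPM) and IRX2 (10.7 CPM) were among the most abundant of the list of 14, and GBX2, a gene of the anterior hindbrain, was at 13.5, 4.69, 8.61 and 1.48 CPM. GBX2 thus ran in the same order of samples as HOXD3, with a replicate difference of 1.81 ± 0.25 (adjusted p = 1.04e-05) and a PP121 difference of −0.87 ± 0.24 with the block (adjusted p = 0.0124, edgeR). IRX3 (−0.94) and IRX5 (−0.81) were lower on day 42 in neurons, and IRX1 was higher in progenitor 1 (0.80) and progenitor 2 (0.78). CDX2 and CDX4 had no UMI in neurons, and no CDX gene passed the filter in any comparison.

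Noncoding genes of the clusters and chromatin regulators completed the lists. Of 22 listed noncoding genes 20 had a row, and HOTAIRM1 (29.6 CPM in neurons), HOXB-AS3 (24.6 CPM) and HOXA-AS2 (11.5 CPM) led. HOXB-AS3, antisense to HOXB3, was lower in progenitor 1 (−2.07), progenitor 2 (−1.02) and mesenchymal nuclei (−3.24) than in neurons, as HOXB3 was. Without stated strand handling, reads of HOXB-AS3 and HOXB3 cannot be told apart where the genes overlap. HOTAIR and 9 others had no UMI in neurons. With PP121 and the block 0 of 7 tested were called in neurons, and HOXB-AS1 was higher in progenitor 2 (0.80, adjusted p = 0.00497 in edgeR). Of 17 Polycomb, Trithorax and other regulators of HOX chromatin, KMT2A (309 CPM), EZH2 (222 CPM) and JARID2 (215 CPM) led in neurons. None was called for PP121 in any class with or without the block, and on day 42 EZH2 was lower in neurons (−0.30), progenitor 1 (−0.70) and progenitor 2 (−0.36).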

How the data were processed

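Nuclei of H9-derived stage 1 enteric ganglioids were profiled on a 10x Genomics platform that reads the poly(A) end of transcripts. The authors deposited raw UMI counts per gene and nucleus with a table of nucleus annotations (class, subtype, dated day, percent of mitochondrial and ribosomal counts). Mitochondrial and ribosomal percent values in that deposited table were computed by the authors, and were read here only as a check of the limits of 7000 genes, 40000 UMIs and 10% mitochondrial counts that the study states. The study's methods name kallisto and bustools, the submitters' processing notes name Cell Ranger, Seurat 4.0.4 and GRCh38 without their roles, and whether intronic reads or strand were used in counting is not given in the sources used here. The study describes hashtag demultiplexing for its single-cell libraries, how doublets were treated among these nuclei is not given in the sources used here, and no doublet caller was run. The sample column of the annotation differs from the label in both control samples, and the labels were used. No column belonged to other samples (0 columns). Nuclei marked as filtered by the authors were dropped, except for 1 check.

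UMI counts were summed per sample and deposited class, with CPM as counts per 1000000 UMIs of that sum. Tests used edgeR 4.0.16 in R 4.3.3 (quasi-likelihood, TMM factors, filterByExpr, Benjamini-Hochberg over all genes tested, threshold 0.05), with DESeq2 1.42.0 as the other tool. The comparison of PP121 with control had no covariate, that of replicates had treatment as a term, and class comparisons had sample as a block. The tests were checked on simulated counts with known changes. Shares of nuclei were taken after thinning each nucleus to 2000 UMIs (seed 39), with exact binomial 95% intervals and an exact permutation test over samples. Intervals cover counting error only. Python 3.11.15, numpy 2.4.6, pandas 2.3.3 and scipy 1.17.1 were used. Replicate numbers were treated as pairs since the annotation dates each number to 1 day. Deviations of same-numbered samples from their group means correlated at 0.513 in neurons, 0.508 in progenitor 1, 0.338 in progenitor 2 and 0.510 in mesenchymal nuclei. All samples were of 1 cell line. A p for PP121 without the block measures the spread between samples of a group. With treatment and replicate both in a fit, it rests on how the PP121 difference varied between the 2 replicates. Where sample was a block, it rests on how class differences varied between samples. The edgeR and DESeq2 fits also draw on the spread of other genes. Whether same-numbered samples of the 2 groups shared a differentiation is not given in the sources used here.

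The HOX genes and the gene lists were chosen with earlier results of these data known. Named are members with an adjusted p under 0.05 (at most 8 a comparison), the 5 highest per class, members without a UMI and, from the other lists, genes from the 5 smallest p values of a list and the 3 highest. LNPK and other genes near the HOXD cluster, ratios within a day, neuron subtypes and replicate tests with a sample left out were added after seeing the data. Alternatives were the replicate block, DESeq2, other count filters, summed classes, no sample block, no treatment term, other thinning depths and leaving out each sample. Promoter windows were RefSeq's, in GRCh38.p14. Some genes of the lists are not reported here.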

Additional observations from a re-analysis of the deposited data

Results flagged for a closer look

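HOXB3 in neurons moved in opposite directions on the 2 days: PP121 relative to control was 0.842 on day 42 and 1.24 on day 38, and each 95% interval for counting error excluded 1. In progenitor 2 the same ratios of HOXB3 were 0.837 and 1.40. Each ratio compares 1 library with 1 library, and the difference between the days was not tested.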

How the results depend on the processing

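The replicate block gave PP121 calls that the fit without it did not: 3 HOX members and 3152 genes in neurons, 593 genes in progenitor 1, 1 member (HOXD3) and 1267 genes in progenitor 2, and 65 genes in mesenchymal nuclei. DESeq2 with the replicate block called 1 member and 633 genes in neurons, and 73, 219 and 3 genes in the other classes. DESeq2 without it called 87, 1 and 96 genes in neurons, progenitor 1 and progenitor 2. For the replicate DESeq2 called 1 member and 453 genes in neurons, 0 members and 652 genes in progenitor 1 (HOXD3 had no adjusted p there), and 150 and 186 genes in progenitor 2 and mesenchymal nuclei. For the interactions in progenitor 1 it called 31 (PP121) and 107 (replicate) genes. Without a count filter PP121 gave 69 genes in neurons, 1 member and 81 genes in progenitor 1, 1 member and 768 genes in progenitor 2 and 40 genes in mesenchymal nuclei, and the replicate gave 2 members in progenitor 1. With neurons and progenitors summed, the replicate block gave 1 member and 994 genes for PP121, and 2 members and 1902 genes for the replicate.

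Without the treatment term the replicate gave 0 members and 0 genes in neurons and both progenitors, and 277 genes in mesenchymal nuclei. With at least 10 counts in every sample it gave 390 genes in progenitor 2 and 393 in mesenchymal nuclei, and the class comparisons kept fewer genes and 0 members, with 3679 (progenitor 1), 2272 (progenitor 2) and 2895 (mesenchymal) genes called against neurons and 3631 between progenitors. Without the sample block 1 member was called between progenitor 1 and neurons. Without mesenchymal nuclei the replicate interaction of progenitor 1 called 2 genes. Thinned to 1000 UMIs the PP121 difference in the share of progenitor 2 nuclei with a HOX UMI turned to 0.188 points, and the HOXC share was 0.365% at 1000 and 0.399% at 4000 UMIs.

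Leaving out 1 sample at a time, PP121 called 0 to 1 members and 0 to 1402 genes in neurons, 6 to 349 genes in progenitor 1, 0 to 1 members and 0 to 1052 genes in progenitor 2, and 0 to 24 genes in mesenchymal nuclei. The replicate called 0 to 1 members and 2 to 271 genes in neurons, 0 to 1 and 0 to 999 in progenitor 1, 0 members and 0 to 48 genes in progenitor 2, and 262 to 786 genes in mesenchymal nuclei. A lone sample in a group is then assumed to vary like the other group. HOXD3 with PP121 ran from −2.18 (without PP121 1) to 0.40 in neurons and from −2.41 to 0.10 in progenitor 2, both reversed without control 1. These fits had no replicate block, so leaving out 1 sample left the days unequal between PP121 and control. Within a day, HOXD3 of PP121 relative to control was 0.561 (day 42) and 0.500 (day 38) in neurons. In progenitor 2 it was 0.553 and 0.385. The PP121 difference in the share of nuclei ran from −10.3 to 2.00 points in neurons, −2.40 to 0.952 in progenitor 2 and −7.78 to 1.18 in all annotated nuclei. The cause of these changes was not tested.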

Other observations

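Neuron subtypes differed in their summed HOX level within each library, a comparison chosen after seeing the data and given as values. Among subtypes of at least 20 nuclei the level ran from 94.2 CPM (EN 8) to 370 CPM (EN 7) in control 1, from 79.9 CPM (EN 5) to 227 CPM (EN 3) in control 2, from 70.6 CPM (EN H) to 352 CPM (EN G) in PP121 1 and from 57.5 CPM (EN E) to 221 CPM (EN C) in PP121 2. The highest subtype was 3.93, 2.84, 4.98 and 3.84 times the lowest. Subtypes had been named separately in control and PP121, so the letters and numbers do not match between them.

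Neurons that the deposited annotation marks as nitrergic, which the study based on imputed expression of the nitric oxide synthase NOS1 together with a score over genes of nitric oxide metabolism, had less HOX transcript than other neurons in 4 of 4 samples. The summed level was 116, 82.3, 87.0 and 81.3 CPM in nitrergic neurons of control 1, control 2, PP121 1 and PP121 2, and 236, 128, 163 and 126 CPM in the others, a mean log2 ratio of −0.80 ± 0.20 (SD, n = 4). HOXB3 (−0.83), HOXA3 (−0.93) and HOXB2 (−0.91) were lower in 4 of 4 samples and HOXD3 (−0.52) in 3 of 4.

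Nuclei that the authors filtered out, which have no class, had summed HOX levels of 204, 115, 120 and 99.5 CPM, above the 159, 87.2, 112 and 84.8 CPM of annotated nuclei of the same samples.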
